A study of Mus musculus with 12 samples.

Results

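The 10 genes described here encode the inhibitors of cyclin-dependent kinases (CDKs) and the retinoblastoma family, and they are the rows Cdkn2a, Cdkn2b, Cdkn2c, Cdkn2d, Cdkn1a, Cdkn1b, Cdkn1c, Rb1, Rbl1 and Rbl2 of a table of 23420 gene symbols. They were chosen by symbol, all 10 were found, and all 10 passed the filter on low counts. The libraries are RNA-seq of bulk pylorus, the outlet of the stomach, from C57BL/6 mice that were either wild-type or carried the CEA424-SV40 T Ag transgene. In these mice a carcinoembryonic antigen promoter drives the T antigen of simian virus 40 in the stomach epithelium, and gastric tumours form. Ages were 60 days (D60) or 80 days (D80), which gives wild-type groups D60WT and D80WT and transgenic groups D60SV and D80SV, with 3 libraries in each. No treatment is given for any group. Whether each library is a different animal is not stated in the labels, and p-values here measure only the spread between libraries, which may be technical.

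CDK inhibitors restrain the kinases that drive a cell from G1 into S phase. The Ink4 proteins (Cdkn2a to Cdkn2d) bind CDK4 and CDK6 and keep them from D-type cyclins, while the Cip/Kip proteins (Cdkn1a to Cdkn1c) bind cyclin-CDK complexes more broadly. When these kinases are held back, the pocket proteins Rb1 (pRB), Rbl1 (p107) and Rbl2 (p130) stay hypophosphorylated and bind E2F factors, which keeps genes of DNA replication off. Large T antigen binds the pocket proteins and p53, and p53 is the classic activator of Cdkn1a.

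Total counts per library ran from 20121600 to 27633715. Levels are given as CPM, counts per 1000000 after scaling of libraries by TMM (trimmed mean of M-values), and 3 counts correspond to 0.109 to 0.149 CPM before that scaling. Gastric genes Gkn1, Gkn2, Tff1 and Tff2 took 10.6 to 15.8% of the counts in the 9 other libraries and 4.52 to 6.17% in the D80SV libraries, where the TMM factors were 1.21 to 1.30 against 0.805 to 1.03 elsewhere. The 8 markers of pyloric epithelium were detected in every library. Y-linked transcripts were present in all 3 D60WT libraries and in D80SV replicate 1 and not in the other 8, so at D60 genotype and sex cannot be told apart. Likewise age and sex cannot be told apart in wild-type mice. A comparison of the genotype differences at D60 and D80 also holds the sex difference of D60WT. Summed CPM of 7 duodenal enterocyte markers reached 9472 in 1 D80WT library (replicate 3), and summed CPM of 8 pancreatic acinar markers was 671 to 3892 in the D80SV libraries, with the highest value in replicate 1. In bulk tissue, fewer cells of a type and less RNA per cell cannot be told apart.

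At D80 the Ink4 genes Cdkn2a, Cdkn2c and Cdkn2d and the Cip/Kip gene Cdkn1b were higher in transgenic pylorus, and Cdkn1a, Cdkn1c and Rbl2 were lower. At D60 Cdkn2a alone passed the test. Of the pocket protein genes, Rb1 and Rbl1 were not called at either age, and the D80 direction of Rb1 and Rbl2 depended on how libraries were scaled. Calls below are adjusted p-values under 0.05 from edgeR's quasi-likelihood test with Benjamini-Hochberg adjustment over all 15369 genes tested. Fold changes are on the log2 scale, transgenic over wild-type or D80 over D60, with a standard error (SE) or a 95% interval.

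**Figure D1:**
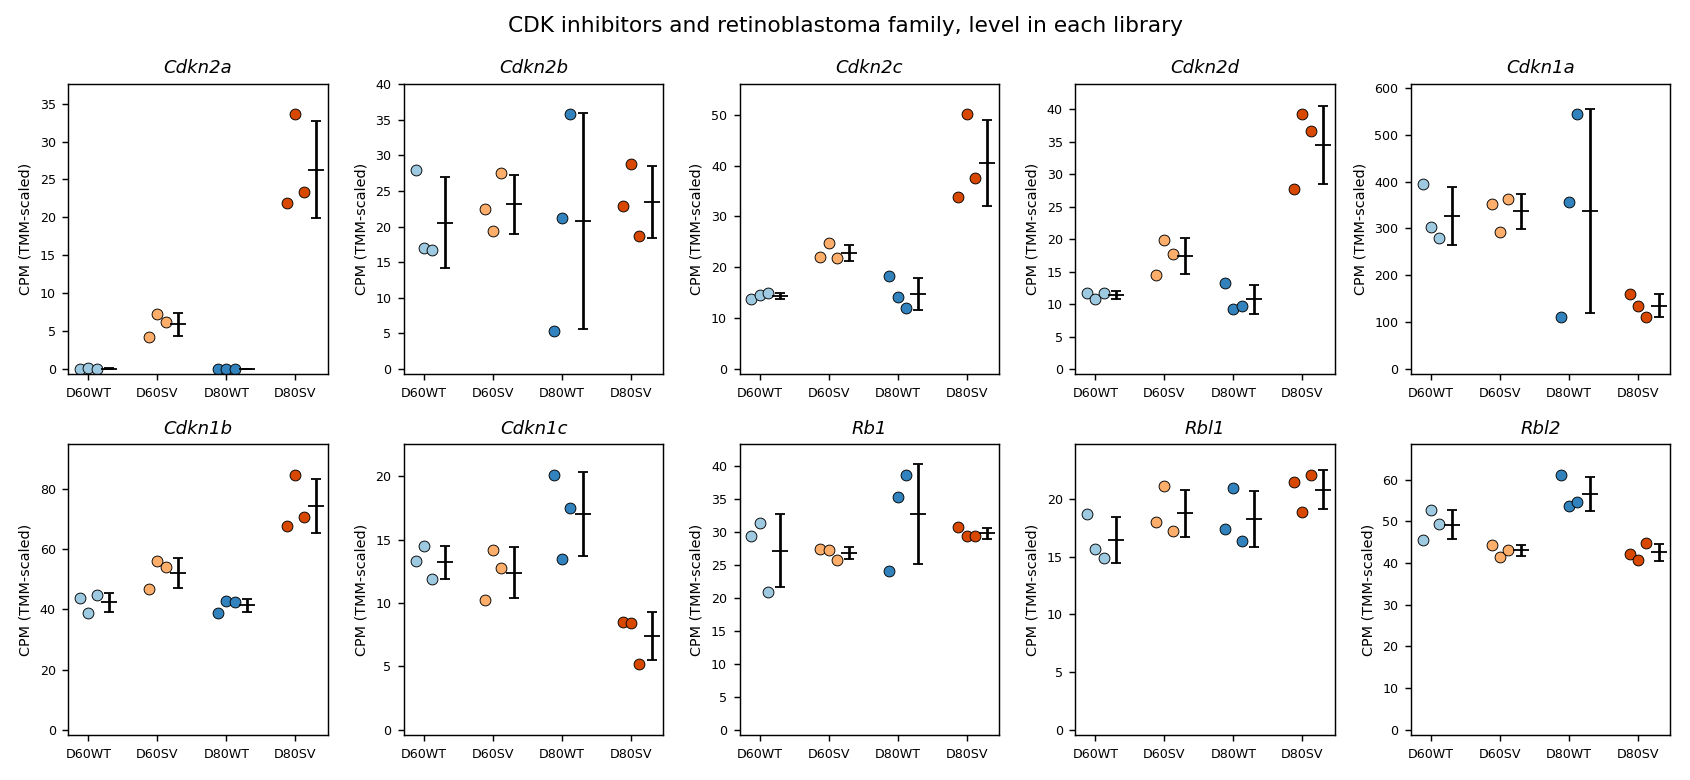
Level of each of the 10 genes in CPM (vertical axis, linear) in the 12 libraries, by group (horizontal axis). Points are libraries, and the bar to their right is the mean ± SD of 3. Cdkn2a lies at or near 0 in the 6 wild-type libraries and at 21.9 to 33.6 CPM in D80SV, while Cdkn1a spreads from 111 to 544 CPM within D80WT.

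Cdkn2a encodes p16 Ink4a and, from another first exon and reading frame, the p53 activator p19 Arf. It lies on chromosome 4 from 89274471 to 89294653 on the minus strand (GENCODE M21 on GRCm38, the assembly called mm10). Both annotated transcripts share the exon at 89276645 to 89276985, and they differ in the first exon, which is at 89294334 to 89294653 (320 bases) for Arf and at 89281986 to 89282192 (207 bases) for Ink4a. The deposited counts sum over the gene, so which transcript the reads came from cannot be read from them. The 250 bases before each RefSeq start (GRCm38.p6) are shown because reads of this gene could come from either start, with any E2F motif in capitals. The Arf window is chr4:89294620-89294869 and the Ink4a window, inside the Arf transcript's intron, is chr4:89282193-89282442, both on the minus strand and written 5′ to 3′.
Cdkn2a, Arf start: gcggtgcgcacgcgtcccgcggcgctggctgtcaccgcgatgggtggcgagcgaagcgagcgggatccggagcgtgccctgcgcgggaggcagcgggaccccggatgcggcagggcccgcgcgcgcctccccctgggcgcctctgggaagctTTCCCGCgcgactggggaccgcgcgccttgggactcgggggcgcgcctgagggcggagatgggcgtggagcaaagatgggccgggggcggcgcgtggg
Cdkn2a, Ink4a start: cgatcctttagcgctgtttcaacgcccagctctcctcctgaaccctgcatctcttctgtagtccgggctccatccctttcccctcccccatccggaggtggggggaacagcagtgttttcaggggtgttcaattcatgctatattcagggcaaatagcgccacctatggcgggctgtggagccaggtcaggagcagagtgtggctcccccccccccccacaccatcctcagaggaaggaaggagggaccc
The motif searched on either strand was TTCCCGC or one of its variants, which were the letters TTCGCGC, the letters TTGCCGC and the letters TTGGCGC. It begins 98 bases before the Arf start and is not among the letters of the Ink4a window. Of 32851 RefSeq windows of this length, 7.89% hold it. A match is a description of the letters and says nothing of binding here.

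Cdkn2a was nearly absent from wild-type pylorus. The D60WT libraries held 0, 3 and 0 counts and the D80WT libraries 1, 0 and 1. D60SV replicates 1, 2 and 3 held 103, 173 and 146 counts, or 4.19, 7.21 and 6.21 CPM. The D80SV libraries held 728, 912 and 757 counts, or 21.9, 33.6 and 23.4 CPM. Every transgenic library therefore lay above every wild-type library, and every D80SV library above every D60SV library. From summed counts, Cdkn2a was 114-fold higher in transgenic mice at D60 (95% counting interval 38.8 to 555, exact binomial, adjusted p = 4.5e-05 in the edgeR test). At D80 it was 909.6-fold higher (counting interval 252 to 7515, adjusted p = 7.4e-07). These intervals cover counting error only. All 3 counts at D60 in wild-type mice came from D60WT replicate 2, and without it the fitted difference went from 6.71 to 10.18 on the log2 scale against libraries at 0, a value that depends on the fit's prior count. Between D60 and D80 in transgenic mice the rise was 2.16 on the log2 scale (SE 0.35, adjusted p = 0.001). All 3 calls held in each of the 24 alternative fits.

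Markers of neuroendocrine cells rose with Cdkn2a. The summed CPM of 8 such markers, among them Chga and Chgb, was 294 to 424 in D60WT, 495 to 535 in D80WT, 4295 to 5876 in D60SV and 24835 to 37224 in D80SV, with no marker at 0 in any library. All 8 were called higher at D60 and at D80. Per 1000 summed CPM of these markers, Cdkn2a stood at 1.19 ± 0.193 CPM in D60SV and 0.894 ± 0.0552 CPM in D80SV (mean ± SD, n = 3, exact permutation p = 0.1, two-sided, the smallest this design allows). The same quantity was 0.151 ± 0.262 in D60WT and 0.0561 ± 0.0486 in D80WT. Chgb, at a mean of 22844 CPM in D80SV, made up most of the sum there. From D60 to D80 in transgenic mice Chgb rose by 2.69 (SE 0.28) and Chga by 2.02 (SE 0.22) on the log2 scale. The rise of Cdkn2a, 2.16, lay between these, so the direction of the ratio depends on the marker. The part of neuroendocrine cells in the Cdkn2a level was not tested. The nearest protein-coding genes on either side of the Cdkn2a-Cdkn2b pair, Mtap (a methylthioadenosine phosphorylase, 93.4 kb away) and Dmrta1 (a DMRT family gene, 385 kb away), did not pass at either age. At D80 Mtap changed by -0.27 (SE 0.16, adjusted p = 0.20) and Dmrta1 by 0.62 (SE 0.49, adjusted p = 0.34), and 1 of them was called without D80WT replicate 3.

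Cdkn2b, the neighbouring gene for p15 Ink4b (chromosome 4, 89306299 to 89311039), did not follow Cdkn2a. Its level was 28, 17 and 16.7 CPM in D60WT and 22.5, 19.4 and 27.6 CPM in D60SV. In D80WT it was 5.36, 21.2 and 35.8 CPM, and in D80SV 22.9, 28.8 and 18.7 CPM. The groups overlapped at each age, and the D80WT libraries alone spanned the values of all other groups. The difference was 0.18 at D60 (95% interval -0.88 to 1.23) and 0.18 at D80 (-0.88 to 1.23), neither called, and the D80 value was -0.28 without D80WT replicate 1 and 0.82 without D80WT replicate 3. The D80 interval runs from 0.544-fold to 2.34-fold, so an absence of change is not shown.

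Cdkn2c, which encodes p18 Ink4c (chromosome 4, 109660876 to 109667189), was higher in transgenic pylorus. The D60WT libraries were at 13.8, 14.5 and 14.9 CPM and the D60SV libraries at 22, 24.7 and 21.8 CPM. The D80WT libraries were at 18.2, 14.2 and 12 CPM and the D80SV libraries at 33.8, 50.1 and 37.6 CPM. No transgenic library fell within the wild-type range at either age. At D80 the difference was 1.45 (SE 0.18, adjusted p = 9.1e-05), or 2.73-fold, and it was called in all 24 alternative fits, at 1.27 to 1.85. At D60 it was 0.67 (95% interval 0.28 to 1.05, adjusted p = 0.063), which missed the threshold and passed it in DESeq2 (adjusted p = 0.017) and in a fit of D60WT and D60SV alone (adjusted p = 0.021). It also passed without D80WT replicate 1 (adjusted p = 0.027), D80WT replicate 3 (adjusted p = 0.039) or D80SV replicate 2 (adjusted p = 0.043) and with D80WT replicate 3 and D80SV replicate 1 both out (adjusted p = 0.033), and was 0.29 with a term for Y-linked transcripts. From D60 to D80 in transgenic mice Cdkn2c rose by 0.82 (SE 0.17, adjusted p = 0.0044).

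Cdkn2d, which encodes p19 Ink4d (chromosome 9, 21288410 to 21291407), ran close to Cdkn2c. It was at 11.7, 10.7 and 11.7 CPM in D60WT and 14.4, 19.9 and 17.7 CPM in D60SV. It was at 13.3, 9.17 and 9.66 CPM in D80WT and 27.7, 39.2 and 36.6 CPM in D80SV, so the 3 D80SV libraries stood above the other 9. At D80 the difference was 1.68 (SE 0.19, adjusted p = 4.6e-05), or 3.21-fold, called in all 24 alternative fits. At D60 it was 0.61 (95% interval 0.21 to 1.02, adjusted p = 0.11), and in transgenic mice it rose with age by 0.99 (SE 0.18, adjusted p = 0.0023). Cdkn2d alone among the 10 genes passed the test of the interaction, where the genotype difference was larger at D80 than at D60 by 1.07 (SE 0.26, adjusted p = 0.040). That call was held in 12 of 23 alternative fits and was lost without any 1 of 8 libraries (0.95 to 1.11, adjusted p 0.075 to 0.12), which were D60WT replicates 2 and 3, D80WT replicates 2 and 3, D60SV replicates 1 and 3 and D80SV replicates 2 and 3. It was also lost with the replicate number as a block (adjusted p = 0.071), with limma-voom (adjusted p = 0.065) and with a term for Y-linked transcripts (1.66, adjusted p = 0.095).

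The promoter windows of Cdkn2c and Cdkn2d are shown because these genes rose together, and that of Cdkn1b because it rose with them. The window of Rbl1, a gene not called in the main test, is shown because it holds an E2F motif. They are chr4:109666757-109667006, chr9:21291210-21291459 and chr2:157204535-157204784 on the minus strand for Cdkn2c, Cdkn2d and Rbl1, and chr6:134920151-134920400 on the plus strand for Cdkn1b, all GRCm38.p6 and the 250 bases before the RefSeq start, with E2F motifs in capitals.
Cdkn2c: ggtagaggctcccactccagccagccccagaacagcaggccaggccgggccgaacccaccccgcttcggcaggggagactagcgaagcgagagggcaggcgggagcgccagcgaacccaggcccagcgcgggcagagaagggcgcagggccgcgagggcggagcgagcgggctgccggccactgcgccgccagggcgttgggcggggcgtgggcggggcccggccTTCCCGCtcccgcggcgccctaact
Cdkn2d: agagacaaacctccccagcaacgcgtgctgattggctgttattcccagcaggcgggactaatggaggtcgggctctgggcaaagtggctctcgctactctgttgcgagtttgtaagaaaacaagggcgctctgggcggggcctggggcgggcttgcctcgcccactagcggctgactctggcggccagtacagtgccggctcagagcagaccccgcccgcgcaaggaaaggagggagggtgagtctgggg
Cdkn1b: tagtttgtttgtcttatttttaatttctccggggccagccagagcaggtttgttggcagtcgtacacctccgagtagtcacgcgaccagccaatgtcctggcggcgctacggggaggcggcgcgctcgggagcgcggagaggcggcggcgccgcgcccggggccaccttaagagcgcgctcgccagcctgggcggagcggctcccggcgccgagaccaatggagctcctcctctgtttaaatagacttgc
Rbl1: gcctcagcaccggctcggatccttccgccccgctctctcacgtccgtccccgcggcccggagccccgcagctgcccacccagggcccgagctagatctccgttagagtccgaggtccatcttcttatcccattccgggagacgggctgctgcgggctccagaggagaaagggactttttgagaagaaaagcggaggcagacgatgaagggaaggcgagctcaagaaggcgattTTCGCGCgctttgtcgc
RefSeq windows were found for 8 of the 10 genes, 11 windows in all, and not for Cdkn1c and Rb1. RefSeq starts can differ from the GENCODE starts. The Cdkn2c window shown lies inside the GENCODE span of its gene. The Cdkn2d window and the Arf window of Cdkn2a overlap the spans of their genes in part. The motif is in 3 of the 11, at the Arf start of Cdkn2a, 25 bases before the Cdkn2c start shown and 17 bases before the Rbl1 start, against 7.89% of all windows. It is not in the window of the other Cdkn2c start, chr4:109665373-109665622. The Cdkn2d and Cdkn1b windows do not hold it either, and the part of the motif in any of these changes was not tested.

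Cdkn1b, which encodes p27 Kip1 (chromosome 6, 134920401 to 134925513), was the Cip/Kip gene that was higher. It was at 43.6, 38.8 and 44.6 CPM in D60WT, 46.6, 56.0 and 53.9 CPM in D60SV, 38.9, 42.7 and 42.5 CPM in D80WT and 67.7, 84.6 and 70.6 CPM in D80SV. The transgenic libraries were above the wild-type libraries of the same age without overlap. At D80 the difference was 0.85 (SE 0.12, adjusted p = 2.4e-04), or 1.80-fold, called in all 24 alternative fits. At D60 it was 0.30 (95% interval 0.04 to 0.56, adjusted p = 0.24), and with age in transgenic mice it rose by 0.51 (SE 0.12, adjusted p = 0.0066).

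Cdkn1c, which encodes p57 Kip2 and is an imprinted gene (chromosome 7, 143458339 to 143461050), was lower at D80. Its level was 13.3, 14.5 and 11.9 CPM in D60WT and 10.2, 14.2 and 12.8 CPM in D60SV, with overlap. It was 20.1, 13.5 and 17.5 CPM in D80WT and 8.53, 8.4 and 5.2 CPM in D80SV, where the groups lay apart. The D80 difference was -1.21 (SE 0.22, adjusted p = 0.0015), or 0.433-fold, and it was called in all 24 alternative fits. In transgenic mice Cdkn1c fell with age by 0.75 on the log2 scale (SE 0.22, adjusted p = 0.022), and this call ended without D60SV replicate 2 (adjusted p = 0.078), D60SV replicate 3 (adjusted p = 0.062) or D80SV replicate 3 (adjusted p = 0.094) and with library totals only (-0.40, adjusted p = 0.21). The antisense gene Gm44732 overlaps 30.7% of the Cdkn1c exon bases. The kit keeps strand, but whether the counting used it is not given in the sources used here, so reads of the antisense partner cannot be told apart. Smooth muscle markers moved the same way, from 9120 to 15184 summed CPM of 6 genes in D80WT to 2276 to 2351 in D80SV, while fibroblast markers moved the other way. Summed CPM of 6 fibroblast genes was 1427 to 1774 in D80WT and 3791 to 4576 in D80SV. Of these 6 genes 3 were called higher, the collagens Col1a1, Col1a2 and Col3a1, which made up most of the sum. Pdgfra (0.25, adjusted p = 0.66), Dcn (0.61, adjusted p = 0.12) and Lum (0.92, adjusted p = 0.07) were not called. No marker of either list was at 0, and their part in the Cdkn1c level was not tested.

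Cdkn1a, which encodes p21 Cip1 (chromosome 17, 29090976 to 29100727), was the Cip/Kip gene with the largest SE at D80. It was at 396, 304 and 279 CPM in D60WT and 353, 293 and 363 CPM in D60SV. In D80WT it was at 111, 357 and 544 CPM and in D80SV at 161, 134 and 111 CPM, so D80WT replicate 1 lay as low as the transgenic libraries and the groups overlapped. The D80 difference was -1.32 (SE 0.41, 95% interval -2.22 to -0.42, adjusted p = 0.024). The call held in 15 of 24 alternative fits. It ended without D80WT replicate 3, the library rich in duodenal transcripts (-0.80, adjusted p = 0.11), without D80WT replicate 2 (-1.28, adjusted p = 0.057), without D80SV replicate 2 (-1.31, adjusted p = 0.070) or 3 (-1.15, adjusted p = 0.099), and with the replicate number as a block (-1.26, adjusted p = 0.057), library totals only (-0.85, adjusted p = 0.075), limma-voom (adjusted p = 0.063) or only the 2 groups in the fit (adjusted p = 0.097). With D80WT replicate 3 and D80SV replicate 1 both left out it was -0.94 (adjusted p = 0.11). Between D60SV and D80SV, where the groups did not overlap, Cdkn1a fell by 1.32 (SE 0.41, adjusted p = 0.028), and this call was lost without D60SV replicate 1 or 3 or D80SV replicate 2 or 3 (adjusted p 0.069 to 0.10) with the block (-1.30, adjusted p = 0.052) and with library totals only (-0.95, adjusted p = 0.051). Surface mucous cell markers were also lower in D80SV, at 16098 to 29112 summed CPM of 5 genes against 101504 to 128689 in D60SV. In D80WT the same sum was 54228 in replicate 1, where Cdkn1a was low, and 126556 and 137141 in replicates 2 and 3. No marker was at 0, and their part was not tested. Exons of the opposite-strand gene AC167363.2 overlap 7.7% of the Cdkn1a exon bases.

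**Figure D2:**
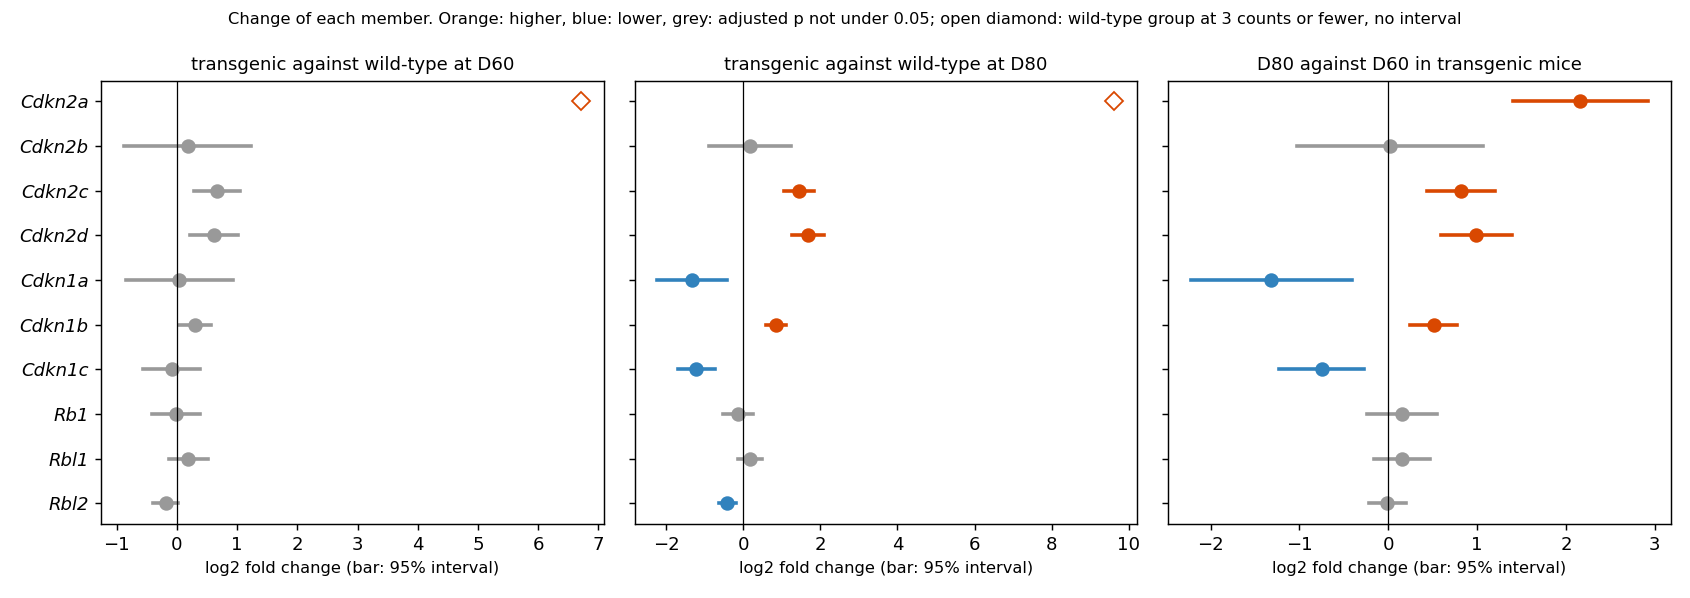
Log2 fold change (horizontal axis, its range differs between panels) of each gene in 3 comparisons, with the 95% interval as a bar. Orange and blue points passed the edgeR test as higher and lower, grey points did not, and the open diamonds mark Cdkn2a against wild-type groups of 3 counts or fewer, drawn without an interval. At D80, 4 genes stand to the right and 3 to the left of 0 among those called.

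The retinoblastoma gene itself, Rb1 (chromosome 14, 73183673 to 73325822), was at 29.3, 31.3 and 20.8 CPM in D60WT and 27.4, 27.2 and 25.7 CPM in D60SV. At D80 it was at 24.1, 35.3 and 38.6 CPM in wild-type and 30.7, 29.3 and 29.3 CPM in transgenic libraries. The wild-type libraries enclosed the transgenic ones at each age. The difference was -0.02 at D60 (95% interval -0.42 to 0.38) and -0.13 at D80 (-0.53 to 0.26), and the D80 value was 0.04 with upper-quartile factors and 0.30 with library totals only, so no direction is given. Fold changes down to 0.694 or up to 1.20 lie within the D80 interval. Exons of the opposite-strand genes Lpar6 and Rcbtb2 overlap 6.8% and 8.1% of the Rb1 exon bases.

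Rbl1, the gene of p107 and itself a known E2F target (chromosome 2, 157145893 to 157204534), was at 18.7, 15.7 and 14.9 CPM in D60WT, 18.0, 21.1 and 17.2 CPM in D60SV, 17.4, 21.0 and 16.4 CPM in D80WT and 21.5, 18.9 and 22.1 CPM in D80SV. All 4 groups overlapped with at least 1 other. The D80 difference was 0.19 (95% interval -0.13 to 0.50, adjusted p = 0.32), and it was called higher with library totals only (0.60, adjusted p = 0.015). Rbl2, the gene of p130, the pocket protein of resting cells (chromosome 8, 91070057 to 91123844), was at 45.6, 52.6 and 49.3 CPM in D60WT and 44.3, 41.5 and 43.2 CPM in D60SV. It was at 61.1, 53.7 and 54.6 CPM in D80WT and 42.2, 40.8 and 44.8 CPM in D80SV, with no overlap at either age. The D60 difference was -0.19 (95% interval -0.40 to 0.02, adjusted p = 0.40). With age Rbl2 changed by -0.01 in transgenic mice. In wild-type mice it changed by 0.20 (adjusted p = 0.42), not called, though D80WT lay above D60WT without overlap, and these groups also differ in Y-linked transcripts. The D80 difference was -0.41 (SE 0.10, adjusted p = 0.0064), or 0.754-fold. It did not pass with upper-quartile factors (-0.25, adjusted p = 0.10), and with library totals only it was 0.01 (adjusted p = 0.98), so the lower level of Rbl2 is one relative to the TMM scale. Exons of the opposite-strand genes Aktip and Gm45464 overlap 9.2% and 11.8% of the Rbl2 exon bases.

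**Figure D3:**
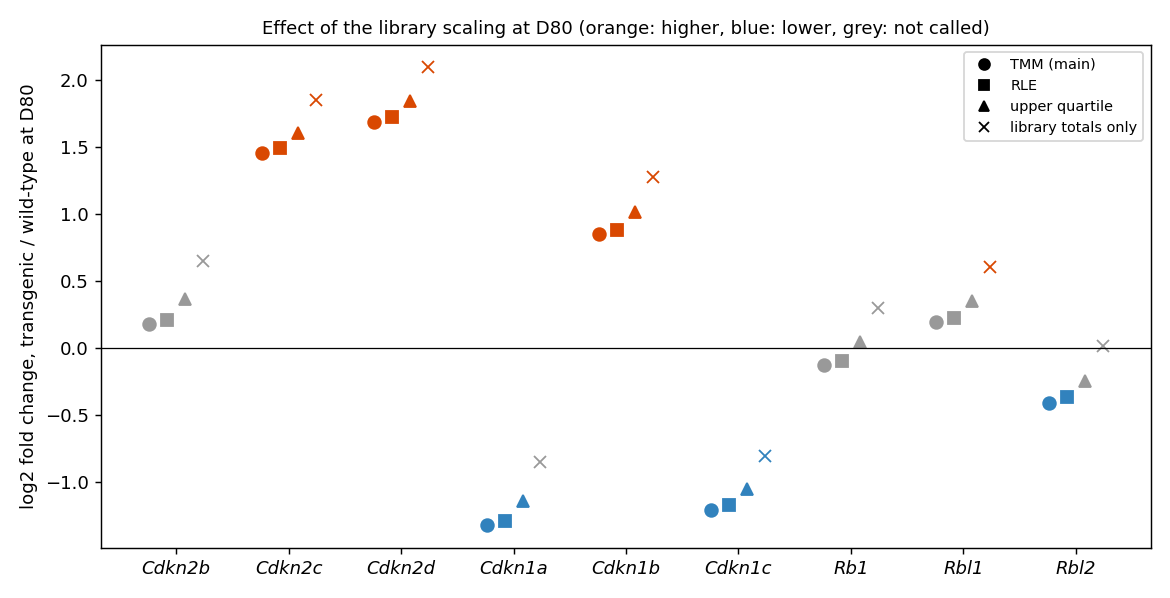
Log2 fold change at D80 (vertical axis) of 9 genes under 4 ways of scaling the libraries, marked by symbol. Cdkn2a is left out for its size. Cdkn2c, Cdkn2d and Cdkn1b stay above 0 and Cdkn1c below 0 under all 4, while Rb1 and Rbl2 cross 0.

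The way libraries were scaled changed values at D80. Against TMM, upper-quartile factors moved the median of all genes at D80 by 0.16 and library totals only by 0.41. Of all genes called at D80, 46.8% were higher with TMM, 63.0% with upper-quartile factors and 83.6% with library totals only. Cdkn2a, Cdkn2c, Cdkn2d, Cdkn1b and Cdkn1c kept their call and direction under every scaling.

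Levels of different genes were compared per length, as CPM per kb of annotated exon (FPKM). In D60WT, Cdkn2b had the highest Ink4 level at 14.8 ± 4.62 FPKM, ahead of Cdkn2d at 7.21 ± 0.366 and Cdkn2c at 5.36 ± 0.222, with Cdkn2a at 0.0402 ± 0.0696 (mean ± SD, n = 3). In D60SV, Cdkn2b was at 16.7 ± 2.98, Cdkn2d at 11 ± 1.75, Cdkn2c at 8.51 ± 0.611 and Cdkn2a at 5.01 ± 1.31. In D80WT the order of means was that of D60WT, but Cdkn2b at 15 ± 11 did not differ from Cdkn2d at 6.81 ± 1.44 or Cdkn2c at 5.51 ± 1.18 beyond its spread. In D80SV, Cdkn2a at 22.4 ± 5.44, Cdkn2d at 21.9 ± 3.84, Cdkn2b at 16.9 ± 3.66 and Cdkn2c at 15.1 ± 3.17 overlapped with their neighbours in that order, while Cdkn2a (18.7 to 28.7) and Cdkn2c (12.6 to 18.6) did not meet. Of the neighbours in the other groups, Cdkn2d and Cdkn2c overlapped in D60SV and in D80WT. In D80WT the range of Cdkn2b (3.86 to 25.8) also enclosed that of Cdkn2d (5.83 to 8.47). The share of summed Ink4 FPKM from Cdkn2a went from 0.164% in D60WT to 12.1% in D60SV and 29.2% in D80SV, where it was 28.3 to 30.9% in the 3 libraries. Summed Ink4 levels were 27.4 ± 4.55 FPKM in D60WT, 41.2 ± 3.77 in D60SV, 27.3 ± 8.67 in D80WT and 76.3 ± 14.7 in D80SV.

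**Figure D4:**
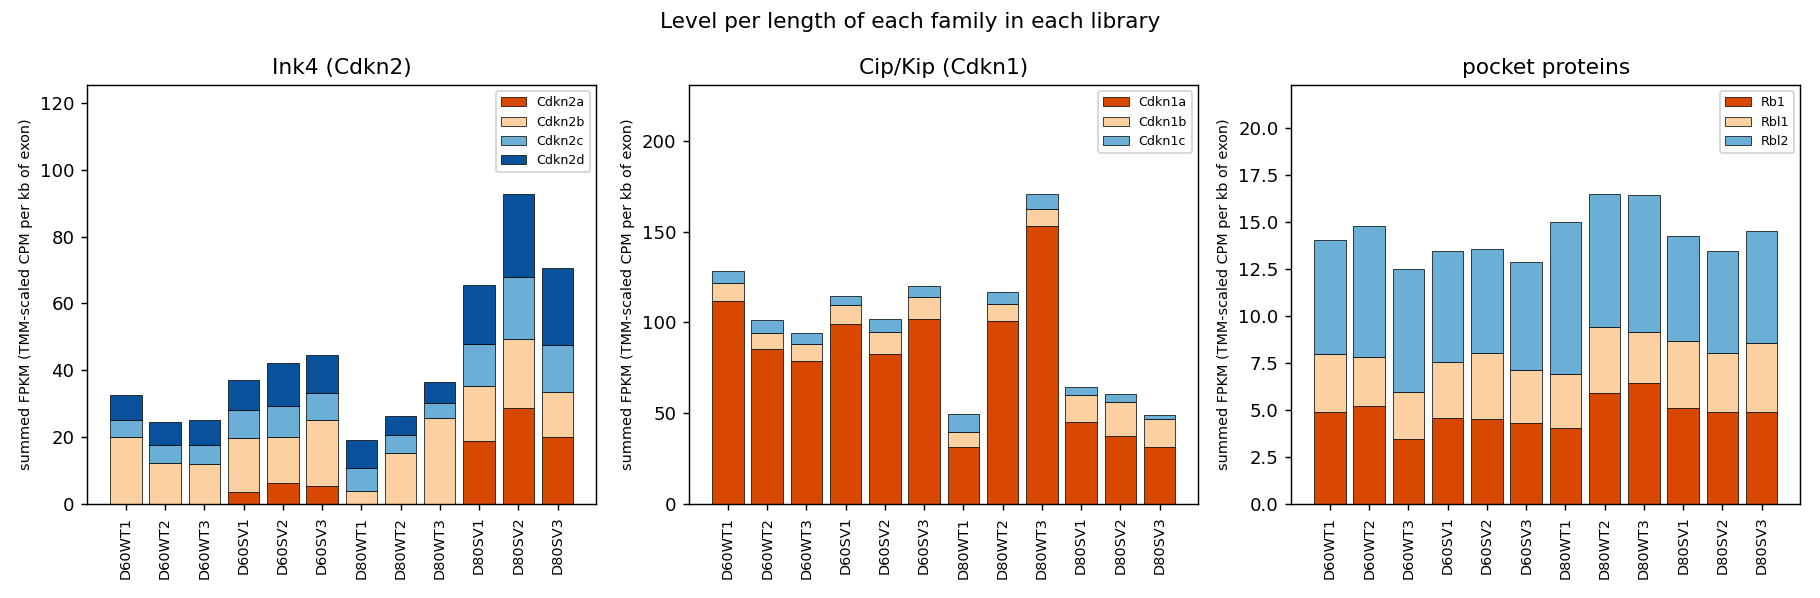
Stacked level per length (vertical axis, FPKM from 0) of the Ink4, Cip/Kip and pocket protein genes in each of the 12 libraries (horizontal axis). The D80SV bars of the Ink4 panel reach 65.3 to 92.9, against 19.1 to 44.6 in the other 9 libraries, and their lowest segment, Cdkn2a, is not visible in wild-type bars.

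Among the Cip/Kip genes Cdkn1a was the highest in each group. It made up 85.1% ± 2.07 of summed Cip/Kip FPKM in D60WT, 84.2% ± 2.89 in D60SV, 79.6% ± 14.5 in D80WT and 65.4% ± 4.39 in D80SV (SD, n = 3). The share from Cdkn1b was 28.5% ± 4.66 in D80SV and 8.78 to 10.3% as means of the other groups. Summed Cip/Kip levels were 58.0 ± 7.80 FPKM in D80SV and 112 ± 60.8 in D80WT, where D80WT replicate 1 at 49.7 was below 2 of the 3 transgenic libraries. For the pocket proteins the order was the same in all 4 groups, with Rbl2 at 5.64 to 7.48 FPKM, Rb1 at 4.45 to 5.43 and Rbl1 at 2.74 to 3.47 as group means. Rbl2 and Rb1 lay apart in D60WT, D60SV and D80SV, and in D80WT their ranges (7.11 to 8.09 and 4.01 to 6.42) did not meet either. The summed pocket protein level was 12.5 to 16.5 FPKM over all 12 libraries.

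Counted by comparison, 1 of the 10 genes was called at D60, where 3.90% of all genes tested were called (3.66% higher and 0.241% lower). At D80, 7 of 10 were called, 4 higher and 3 lower, against 41.3% of all genes (19.4% higher and 22% lower). The count at D80 was 6 with D80WT replicate 3 and D80SV replicate 1 both left out. The groups did not overlap for 6 of 10 genes at D80, against 50.6% of all genes, and for 5 of 10 at D60, against 20%. The median difference over the 10 genes was 0.18 at D80 and -0.07 over all genes, and 0.18 and 0 at D60. Between D60 and D80 in transgenic mice 6 of 10 were called, 4 higher and 2 lower, against 35.7% of all genes (17.7% higher and 18.0% lower), and the groups lay apart for 7 of 10, against 58.5%. This comparison shares the D80SV libraries with the one at D80. In wild-type mice no gene of the 10 and no gene at all was called between the ages by edgeR. These wild-type groups lay apart for 1 of the 10, Rbl2, against 11.6% of all genes, and they also differ in Y-linked transcripts. At an unadjusted p under 0.05 there were 0 of the 10 and 1925 genes in all, DESeq2 called 0 of the 10 and 254 genes, and limma-voom called 0 of either. The wild-type differences of the genes other than Cdkn2a ran from -0.08 to 0.37. For the interaction 1 of 10 was called, against 5% of all genes (2.77% higher and 2.23% lower). Among the genes that missed it, the genotype difference at D80 less that at D60 was 2.91 for Cdkn2a (95% interval -0.15 to 5.97, adjusted p = 0.24, against wild-type groups of 3 counts or fewer), 0.78 for Cdkn2c (adjusted p = 0.087), 0.55 for Cdkn1b (adjusted p = 0.077), -1.12 for Cdkn1c (adjusted p = 0.061) and -1.36 for Cdkn1a (adjusted p = 0.18).

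The other genes of the pathway were described by lists. D-type cyclins and CDK4 and CDK6, the kinases that the Ink4 proteins bind, mostly did not pass. Of 5 genes, 0 were called at D60 and 1 at D80, the cyclin Ccnd3, at 86.7 CPM in D80WT and 60.0 in D80SV (-0.53, SE 0.10, adjusted p = 0.0021). The kinase gene Cdk4 was at 92.4 and 109.7 CPM (0.25, adjusted p = 0.29), the cyclins Ccnd1 and Ccnd2 were not called, and the count was 2 without D80WT replicate 1. Of 7 genes, the E- and A-type cyclins with their kinases and the phosphatase gene Cdc25a, which activates those kinases, 5 were higher and 1 lower at D80, with a median of 0.90, and 0 were called at D60. The lower gene was Cdc25a, from 67.8 to 49 CPM (-0.47, SE 0.15, adjusted p = 0.024). Cyclin Ccne2 rose from 4.19 to 15.4 CPM (1.87, SE 0.20, adjusted p = 3.8e-05), Ccne1 from 7.55 to 15.3 CPM (1.02, SE 0.24, adjusted p = 0.0062), and the mitotic kinase Cdk1 from 41.7 to 77.9 CPM (0.90, SE 0.22, adjusted p = 0.008).

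Among 10 E2F and DP factors, which include E2Fs that pocket proteins bind and the repressors E2f6, E2f7 and E2f8 that they do not, 3 were higher and 2 lower at D80. Over all genes 41.3% were called there. The activator E2f1 rose from 8.24 to 25.8 CPM (1.64, SE 0.20, adjusted p = 7.8e-05) and the repressor E2f7 from 4.40 to 10.7 CPM (1.28, SE 0.20, adjusted p = 6e-04). The DP partners parted, with Tfdp1 at 0.58 (SE 0.14, adjusted p = 0.007) and Tfdp2 at -0.75 (SE 0.13, adjusted p = 8.4e-04). At D60, E2f1 (0.92, SE 0.20, adjusted p = 0.020) and E2f7 (0.85, SE 0.21, adjusted p = 0.042) were the 2 of this list called. The D60 count was 0 without D60WT replicate 1 or 3 or D60SV replicate 2 and with a term for Y-linked transcripts. It was 1 without any of 7 other libraries, which were D60WT replicate 2, D80WT replicate 2, D60SV replicates 1 and 3 and the 3 D80SV replicates.

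Of 14 replication genes known as E2F targets, 12 were higher and 0 lower at D80, with a median of 0.74. Ribonucleotide reductase subunit Rrm2 rose from 33.3 to 93.4 CPM (1.49, SE 0.19, adjusted p = 1.3e-04) and the helicase subunit Mcm2 from 30.1 to 89.0 CPM (1.56, SE 0.20, adjusted p = 1.5e-04). The count of 12 was 7 with D80WT replicate 3 and D80SV replicate 1 left out together. Markers of some other cell types were higher in the same comparison, with 5 of 5 for macrophages (median 1.52), 5 of 5 for neutrophils (median 6.58) and 3 of 5 for endothelium (median 0.73). Their summed CPM in D80WT and D80SV was 72.6 to 116 and 217 to 293 for macrophages, 0.97 to 2.08 and 14.1 to 132 for neutrophils, and 115 to 172 and 208 to 235 for endothelium. Of 5 T-cell markers 1 was higher (median -0.27), at 2.11 to 33.2 summed CPM in D80WT and 12.4 to 17.4 in D80SV. Up to 2 neutrophil markers were at 0 in a D80WT library and no other of these markers was, and their part in the rise of the cell-cycle lists was not tested. At D60 the licensing factor Cdt1 was the 1 called (0.70, SE 0.14, adjusted p = 0.014), and none was without D60WT replicate 3 or D60SV replicate 2, 2 without D80WT replicate 1 and 3 without D80WT replicate 3. Of 7 genes of MuvB, the complex that joins Rbl1 and Rbl2 in repressing cell-cycle genes, and its Myb partners, 3 were higher at D80, and 5 without D80WT replicate 1, 5 with upper-quartile factors and 7 with library totals only. The germline Myb factor Mybl1 rose from 0.754 to 6.71 CPM (3.14, SE 0.27, adjusted p = 7.6e-06), the MuvB subunit Lin9 from 6.04 to 14.4 CPM (1.25, SE 0.25, adjusted p = 0.0025) and the histone chaperone Rbbp4 from 124 to 158 CPM (0.35, SE 0.11, adjusted p = 0.028), while Mybl2, at 9.64 and 14.7 CPM, did not pass. At D60 Mybl1 was the 1 called (1.10, SE 0.27, adjusted p = 0.044), a call lost without any 1 of the D60WT, D60SV and D80SV libraries. Of 7 co-repressors of pRB, 2 were higher at D80, the methyltransferase gene Suv39h1 (0.88, SE 0.16, adjusted p = 0.0013) and Rbbp7 (0.45, SE 0.15, adjusted p = 0.032), with 1 called without D80WT replicate 3 or D80SV replicate 1 or 2 and 5 with library totals only.

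**Figure D5:**
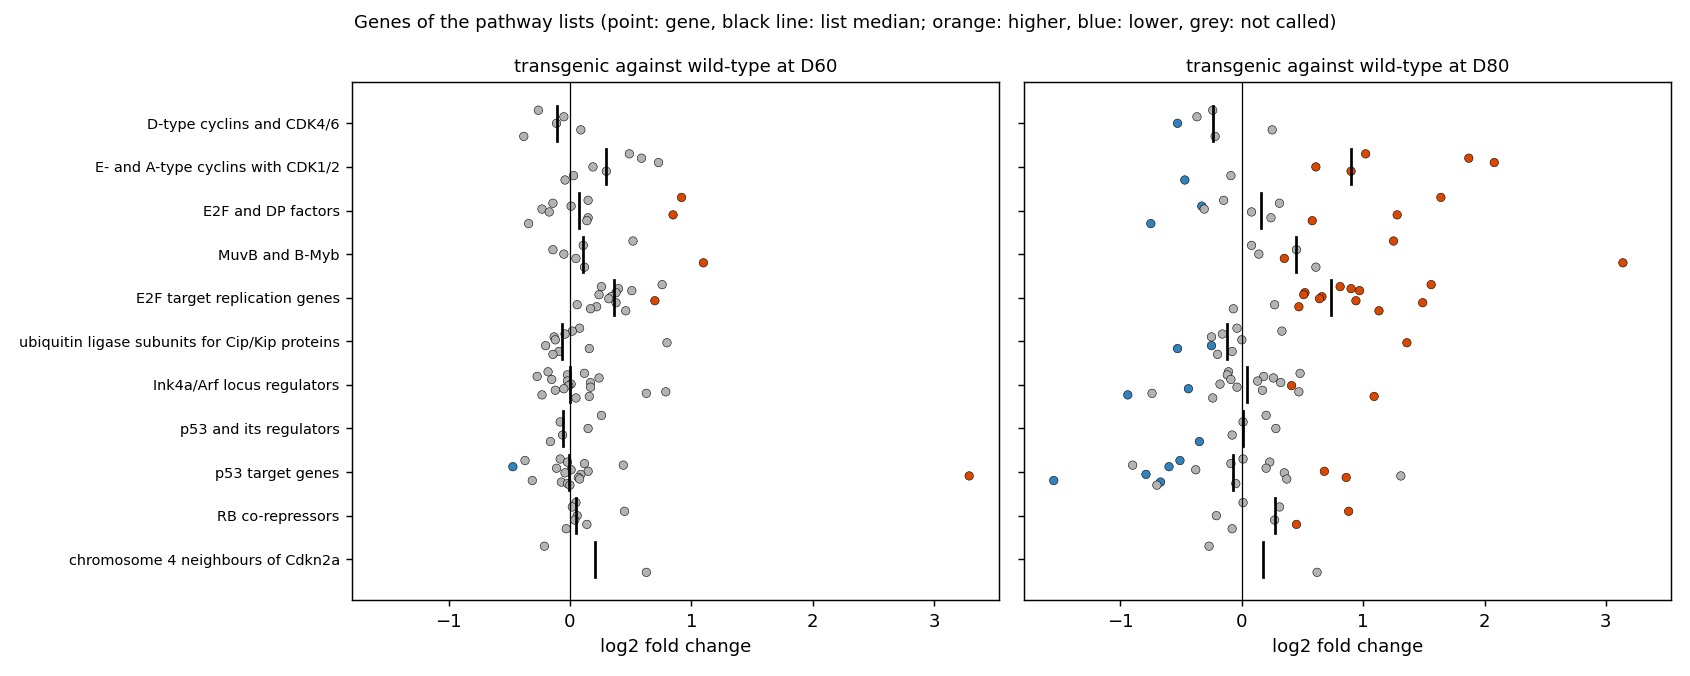
Log2 fold change (horizontal axis) of every tested gene of the pathway lists (vertical axis) at D60 and D80. Each point is a gene, coloured by its call, and the black line is the list median. At D80 the replication genes lie mostly to the right of 0, with a median of 0.74. The p53 targets spread to both sides, with a median of -0.07, which is also that of all genes.

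Of 18 known regulators of the Ink4a/Arf locus, 2 were higher and 2 lower at D80, where 41.3% of all genes were called, and 0 were called at D60. Their median at D80 was 0.04, against -0.07 over all genes. The count of 4 was 2 without D80SV replicate 2 and 9 with library totals only. The inhibitor of differentiation Id1, a repressor of Ink4a transcription, went from 297 to 155 CPM at D80 (-0.94, SE 0.17, adjusted p = 0.0015), and Ets1, an activator of it, from 17.6 to 37.6 CPM (1.09, SE 0.29, adjusted p = 0.011). The Polycomb subunit Phc1 was higher (0.41, SE 0.13, adjusted p = 0.021) and the H3K27 demethylase gene Kdm6b lower (-0.44, SE 0.16, adjusted p = 0.047). The Polycomb gene Bmi1, a classic repressor of the locus, was at 25.3 CPM in D80WT and 23.5 in D80SV (-0.11, SE 0.11, adjusted p = 0.48). Of 10 ubiquitin ligase subunits that turn over Cip/Kip proteins, 1 was higher and 2 lower at D80. The CUL4 adaptor Dtl rose from 7.19 to 18.5 CPM (1.36, SE 0.23, adjusted p = 9e-04), and the scaffolds Cul4a (-0.25, adjusted p = 0.036) and Cul4b (-0.53, adjusted p = 0.043) were lower. The count of 3 was 1 without D60WT replicate 1, D80WT replicate 2, D60SV replicate 2 or D80SV replicate 2 or 3, and with upper-quartile or relative log expression factors.

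Of 5 genes for p53 and its regulators, 1 was lower at D80, the deubiquitinase Usp7 (-0.35, SE 0.10, adjusted p = 0.014), with 0 without D80WT replicate 2 or D80SV replicate 2 or 3 and 2 with library totals only. Trp53 itself was at 39.1 CPM in D80WT and 44.8 in D80SV (0.20, SE 0.16, adjusted p = 0.35). Of 18 p53 target genes other than Cdkn1a, of which Mdm2 is also in the list of regulators, 2 were higher and 5 lower at D80, with a median of -0.07, and 4 in all were called without D80WT replicate 2, D80SV replicate 2 or D80SV replicate 3. Perp, a desmosome-associated p53 target, went from 332 to 113 CPM (-1.55, SE 0.26, adjusted p = 7.4e-04), Zmat3 from 61.2 to 40.5 CPM (-0.60, SE 0.11, adjusted p = 0.0014) and the cyclin G gene Ccng1 from 142 to 99.7 CPM (-0.51, SE 0.11, adjusted p = 0.0036), while the stress-response gene Sesn2 rose from 7.97 to 12.8 CPM (0.68, SE 0.14, adjusted p = 0.0029). At D60 the secreted factor Gdf15 was higher, at 0.126 CPM in D60WT and 1.36 in D60SV (3.29, SE 0.74, adjusted p = 0.028). Its D60WT mean lies below the CPM of 3 counts, and at D80 it was not called (1.31, SE 0.56, adjusted p = 0.083). Zmat3 was lower at D60 (-0.47, SE 0.11, adjusted p = 0.032). No gene of the list was called at D60 without any 1 of D60WT replicates 1, 2 and 3 and D60SV replicates 2 and 3, with 1 called without D60SV replicate 1 or D80SV replicate 3.

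The genes whose log2 CPM over the 12 libraries was most like that of a member were sought among 13954 genes with a mean of at least 1 CPM. For Cdkn2a they were Gad2, a glutamate decarboxylase (Pearson r 0.996), the synaptic vesicle protein Synpr (r 0.995) and the glucuronyltransferase B3gat1 (r 0.994). For Cdkn2c they were Bex2 (r 0.988), Slc35f3 (r 0.986) and the mitotic kinesin Kifc1 (r 0.985), and for Cdkn1a the transcription factor Klf6 (r 0.986), Arhgap27 (r 0.986) and the interferon lambda receptor Ifnlr1 (r 0.985). Cdkn1c was most like Angptl1 (r 0.958), Nosip (r 0.936) and Tshz1 (r 0.932), and Rbl1 like Ccdc138 (r 0.926), Ret (r 0.878) and Nsun5 (r 0.876). The libraries fall into 4 groups, so these coefficients mostly describe group differences, and they are given as a description.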

How the data were processed

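The authors deposited raw counts per gene symbol for 12 stranded mRNA libraries, with no normalization. The submitters' processing notes name the build mm10 and the tools HTSeq 0.9.1, STAR 2.5.3a and edgeR 3.16.5, without their roles. No source used here gives the annotation or the strand setting. The deposited normalized table was not used. Tests used edgeR 4.0.16 in R 4.3.3 (filterByExpr, TMM, quasi-likelihood fit with 1 coefficient per group, all 12 libraries, threshold 0.05), leaving 15369 genes, with a biological coefficient of variation of 24.2%. Alternatives used limma 3.58.1 and DESeq2 1.42.0. The SE is the fold change over the square root of F. Lengths are union exon lengths of GENCODE M21. The pipeline was tested on simulated data. Replicate numbers were not in the main model, and libraries sharing one did not deviate together.

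The members and lists were chosen with earlier results of these data known. All 10 members were named, for each list up to 4 genes with the smallest p at D80 and 2 at D60, and for 5 members the 3 genes most alike.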

Additional observations from a re-analysis of the deposited data

Results flagged for a closer look

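Of the 10 genes, Cdkn2d was the one whose genotype difference itself differed between the ages in a test. Transgenic less wild-type at D80 exceeded the same difference at D60 by 1.07 on the log2 scale (SE 0.26, adjusted p = 0.040 in the edgeR interaction test, 3 libraries per group). Over the 23 alternative fits the value ran from 0.95 to 1.66 and the adjusted p from 0.002 to 0.12. Y-linked transcripts were in every D60WT library and in no D60SV or D80WT library, so sex enters this difference too.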

How the results depend on the processing

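The count of members called was 7 at D80 and 6 or 7 over its 24 alternatives. At D60 it was 1, and 2 with DESeq2, with only the groups compared and with D80WT replicate 3 and D80SV replicate 1 left out together, and 1 to 2 without single libraries. With age in transgenic mice it was 6, and 4 to 6 over all alternatives. For the interaction it was 1, and 2 with upper-quartile factors or library totals only, 4 with DESeq2, 0 with limma-voom, with the replicate block or with a term for Y-linked transcripts, and 0 to 3 without single libraries; that comparison has no fit with fewer groups. In wild-type mice it was 0 throughout.

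Over all genes, DESeq2 called 992 at D60, 254 between ages in wild-type mice and 1745 for the interaction, against 599, 0 and 768. A term for Y-linked transcripts, which only D80SV replicate 1 identifies, left 85, 1 and 99. Limma-voom called 423 for the interaction. In wild-type mice 5 genes were called with only the groups compared and 7 with D80WT replicate 3 and D80SV replicate 1 left out. Without single libraries the counts were 378 to 736 at D60 (378 without D60WT replicate 3), 4416 to 7079 at D80, 3507 to 6594 with age in transgenic mice (3507 without D80SV replicate 2), 0 to 396 in wild-type mice and 193 to 2419 for the interaction (193 without D60SV replicate 3, 2419 without D80WT replicate 1). Library totals only moved the share of higher calls from 49.6 to 82.4% with age in transgenic mice and from 55.3 to 79.3% for the interaction, where upper-quartile factors gave 65.4%.

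The replicate block gave 611 called genes at D60, 5993 at D80, 5189 with age in transgenic mice and 635 for the interaction. Beside the calls of Cdkn1a and Cdkn2d named above it ended no call of a member. The numbers are only in the titles, and over the 18 pairs with a shared number the correlation of deviations averaged -0.004, from -0.344 to 0.393, so no pairing was taken.

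Values of members that changed sign follow, with the reported value in brackets. At D60, Cdkn1a (0.04) was 0 without D60WT replicate 2, -0.06 without D60WT replicate 3 and -0.01 without D60SV replicate 3 (-0.06 to 0.20 without single libraries). Cdkn1c (-0.09) was 0.02 with library totals only, 0.24 with the Y-linked term and 0.03 without D60SV replicate 1 (-0.21 to 0.03). Rb1 (-0.02) was 0.02 with upper-quartile factors, 0.09 with library totals only, 0.01 with limma-voom, 0.05 with the Y-linked term, and 0.03, 0.10 and 0.01 without D60WT replicate 1, D60WT replicate 2 and D60SV replicate 3 (-0.18 to 0.10). At D80, Cdkn2b (0.18) was -0.28 without D80WT replicate 1 (to 0.82 without replicate 3), Rbl2 (-0.41) was 0.01 with library totals only, and Rb1 (-0.13) was 0.04 with upper-quartile factors, 0.30 with library totals only and 0 without D80WT replicate 3 (-0.31 to 0). With age in transgenic mice, Cdkn2b (0.02) was -0.01, -0.05 and -0.16 without D60SV replicate 1, D60SV replicate 2 and D80SV replicate 2 (-0.16 to 0.19). Rbl2 (-0.01) was 0.01 with relative log expression factors or DESeq2, 0.09 with upper-quartile factors, 0.36 with library totals only, 0.04 without D60WT replicate 1, and 0.01, 0 and 0.02 without D60SV replicate 1, D60SV replicate 2 and D80SV replicate 2. The cause was not tested, except that scaling shifts all genes together. With library totals only, Rb1 (0.52, adjusted p = 0.033) and Rbl1 (0.51, adjusted p = 0.031) were also called higher with age in transgenic mice.

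With the longest transcript as length, D80SV shares became 33.6% for Cdkn2a (29.2% with all exons), 18.8% for Cdkn2c (19.7%), 76.0% for Cdkn1a (65.4%), 19.5% for Cdkn1b (28.5%), 4.51% for Cdkn1c (6.17%), 33.1% for Rb1 (35.2%), 22.1% for Rbl1 (24.7%) and 44.8% for Rbl2 (40.1%). Cdkn2a in wild-type libraries lies at the counting limit, and groups of 3 limit the rest.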
